A study of Mus musculus with 6 samples.

Results

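PU.1, Spi-B, IRF4, IRF8 and Ets1 are transcription factors that act together at the immunoglobulin light-chain genes of developing B cells, and their transcripts were followed on 6 arrays of sorted B cell progenitors from old and young mice. Every probe set that the platform annotation pairs with Spi1 (which encodes PU.1), Spib, Irf4, Irf8 or Ets1 alone was taken. The rule found 5 probe sets, 1 for each of the 5 genes, among 21789 single-gene probe sets of 19938 genes, and 0 probe sets that any of the 5 shares with another gene. The cells were pro-B and pre-B cells of BALB/c mice, an inbred strain, sorted together and not manipulated before RNA was taken. The old group holds 3 arrays from mice of 24 months and the young group 3 arrays from mice of 2 months, each made from 100 ng of amplified RNA on a whole-transcript oligonucleotide array. All groups share strain, sort and handling, no genetic change or agent is named, and the labels do not say whether animals were pooled for an array, so p-values reflect the spread among these arrays alone. The sources used here do not give the sort gates, the sex or the share of pro-B against pre-B cells in each sample.

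PU.1 and Spi-B are close relatives within the ETS family and bind DNA at a GGAA core. At enhancers of the kappa and lambda light-chain genes they recruit IRF4 or IRF8, members of the interferon regulatory factor family that bind poorly to such composite elements alone. Light-chain rearrangement marks the passage from a large cycling pre-B cell, which carries a surrogate light chain, to a small pre-B cell, and IRF4 and IRF8 are known both to promote it and to lower the surrogate light-chain genes. PU.1 has a second role, since high levels of it direct progenitors to the myeloid lineage, where IRF8 also acts. Ets1 is a further ETS protein used at many lymphoid promoters and enhancers.

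The promoters of Spib, of the ETS family, and of Irf4 and Irf8, of the IRF family, are shown with the GGAA core of ETS proteins marked. They were read from RefSeq windows on build GRCm38.p6, the genome of another strain (C57BL/6J), which matched 3 of the 5 genes. Each run gives, 5′ to 3′ on the strand of the gene, the bases upstream of its annotated extent, and capitals mark GGAA cores on either strand (GGAA or TTCC). Spib lies on the minus strand, at chr7:44532088-44532321 for the bases printed, Irf4 on the plus strand at chr13:30748983-30749232 and Irf8 on the plus strand at chr8:120736108-120736357.
Spib: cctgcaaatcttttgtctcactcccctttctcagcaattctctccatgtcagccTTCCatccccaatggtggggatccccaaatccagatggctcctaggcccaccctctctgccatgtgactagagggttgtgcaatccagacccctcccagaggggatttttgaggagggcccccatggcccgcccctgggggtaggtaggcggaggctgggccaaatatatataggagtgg
Irf4: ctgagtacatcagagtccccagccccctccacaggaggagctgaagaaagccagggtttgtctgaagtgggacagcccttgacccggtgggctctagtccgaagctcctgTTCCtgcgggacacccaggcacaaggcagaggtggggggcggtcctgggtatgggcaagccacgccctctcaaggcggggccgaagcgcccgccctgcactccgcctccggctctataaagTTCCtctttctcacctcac
Irf8: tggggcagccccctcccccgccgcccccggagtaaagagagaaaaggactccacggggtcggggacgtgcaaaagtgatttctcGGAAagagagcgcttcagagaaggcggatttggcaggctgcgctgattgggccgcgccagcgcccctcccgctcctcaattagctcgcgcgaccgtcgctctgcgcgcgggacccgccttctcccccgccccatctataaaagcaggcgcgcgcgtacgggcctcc
In windows from 250 bases before to 50 after the start site, counted on both strands, GGAA occurred once in that of Spib, at position -196 from the start. The Irf4 window held 3 cores, at positions -140, -19 and 2, and that of Irf8 held 2, at -166 and 39. A second RefSeq window of Irf8, for a start site further downstream at chr8:120738389-120738688, held 3, at -242, -147 and 1, and is not printed. Such a core is common, being present in 96.0% of all 32851 promoter windows. The composite spacing GGAANNGAAA, of which GGAA is a part, occurs in 2.72% of windows and the repeat GAAANNGAAA in 3.44%, and neither sequence was found in these 4 windows. TATAAA, present in 13.6% of windows, stood at position -26 from the start of Irf4 and -31 from the first of Irf8, and was in neither the Spib window nor the second of Irf8. These matches describe letters in these windows.

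The arrays fell into sets that shape every result. Genes of odorant and pheromone receptors, with no known use in B cells, served to set a level of background on each array, the 95th percentile of their 1205 probe sets, called the receptor level here. It lay at 6.28 and 6.19 log2 units on old replicates 1 and 2, at 5.02 on old replicate 3 and at 4.57 to 4.73 on the young arrays. Of 23410 probe sets with a gene, 3492 and 4080 lay above it on old replicates 1 and 2, against 11529 on old replicate 3 and 12435 to 13200 on the young arrays. The correlation with the young arrays across these probe sets, which are no replicates of each other, was 0.607 to 0.702 for old replicates 1 and 2, and 0.978 to 0.985 for old replicate 3. Results are therefore given for all 3 old arrays, and also for old replicate 3 without the other two. Of the pro-B and pre-B markers with a probe set of their own, 13 of 13 lay above the receptor level on old replicate 3 and on each young array, but 4 and 7 did on old replicates 1 and 2. In sorted bulk RNA, fewer cells of a type and less RNA per cell cannot be told apart.

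In the young progenitors all 5 regulators were measured well clear of background and with little spread between arrays. Values are the log2 deposited intensity, and a probe's brightness depends on its sequence, so the levels of different genes are not ranked. Spib stood at 8.91, 8.95 and 8.81 on young replicates 1, 2 and 3, a mean of 8.89 ± 0.072 (SD, n = 3). Irf4 stood at 8.05, 8.07 and 8.02, a mean of 8.05 ± 0.026 (SD, n = 3). Irf4 had the smallest spread between young arrays of the 5 genes and Spi1 the largest. Ets1 stood at 8.17, 8.13 and 8.26, a mean of 8.19 ± 0.071 (SD, n = 3). Irf8 stood at 7.13, 7.18 and 7.22, a mean of 7.18 ± 0.041 (SD, n = 3). Spi1 stood at 6.41, 6.56 and 6.62, a mean of 6.53 ± 0.11 (SD, n = 3). Each of these 15 values was above the receptor level of its array.

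Spib was the one regulator whose old and young values overlapped. It read 5.67, 4.64 and 9.38 on old replicates 1, 2 and 3, a mean of 6.57 ± 2.49 (SD, n = 3). Old replicates 1 and 2 were the lowest of the 6 arrays and old replicate 3 the highest, so the groups overlapped. The difference, old minus young, was -2.32 ± 1.12 (SE), with an adjusted p of 0.13 in limma's moderated test over all 23410 probe sets. On old replicates 1 and 2 both values lay within the receptor level. Raised to that level, the Spib intensity was 6.08-fold and 6.48-fold lower there than the young mean. Such folds compare intensities and set no minimum for a change in transcript, because the range of signal differed between arrays. The interquartile range was 1.41 and 1.40 log2 units on old replicates 1 and 2 and 2.44 on old replicate 3, against 2.76 to 2.98 on the young arrays.

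**Figure D1:**
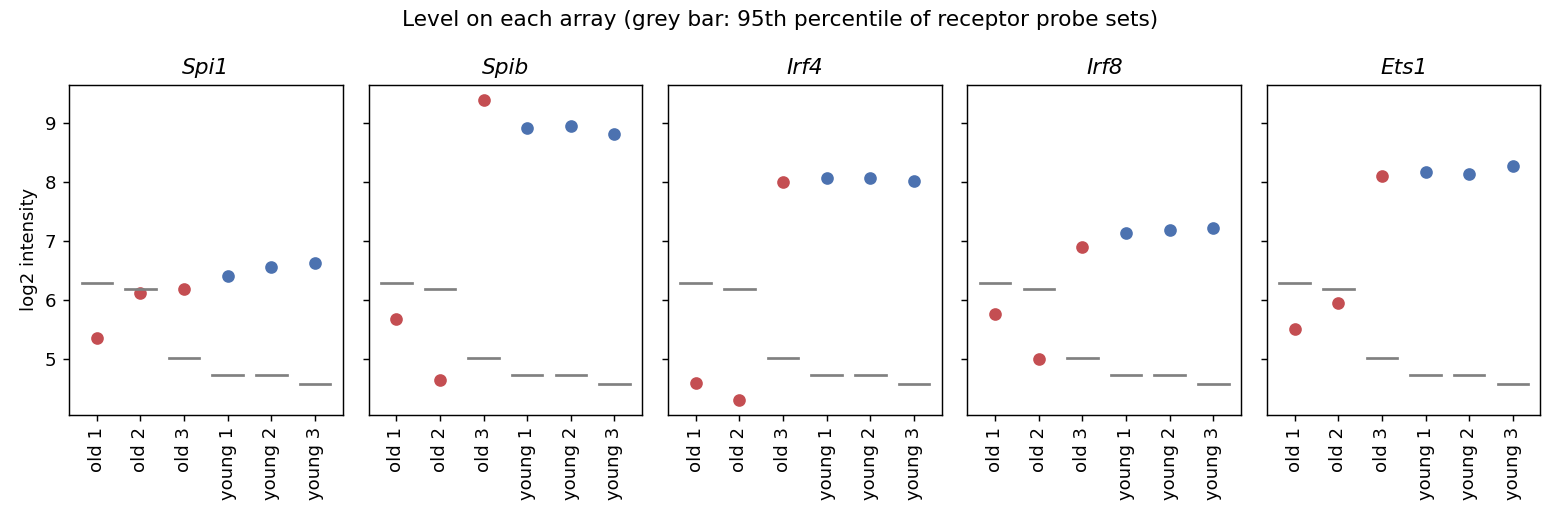
Log2 intensity (vertical axis) of Spi1, Spib, Irf4, Irf8 and Ets1 on each of the 3 old (red) and 3 young (blue) arrays; each point is 1 array and each grey bar is the receptor level of that array. On old replicates 1 and 2 all 5 genes lie below the bar, and on old replicate 3 Spib, at 9.38, is above the 3 young arrays.

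The IRF partners gave lower old means without overlap between the groups. Irf4 read 4.60, 4.31 and 7.99 on old replicates 1, 2 and 3, a mean of 5.63 ± 2.04 (SD, n = 3). Old replicate 3 lay just below the young arrays and the other two far below them. The difference was -2.42 ± 0.92 (SE), with an adjusted p of 0.101 by limma. Irf8 read 5.76, 4.99 and 6.89 on the old arrays, a mean of 5.88 ± 0.96 (SD, n = 3). All 3 old values were below all 3 young ones, with a difference of -1.30 ± 0.46 (SE) and an adjusted p of 0.101 by limma. With the values of old replicates 1 and 2 raised to the receptor level, the Irf4 intensity was 3.40-fold and 3.62-fold lower than the young mean. That of Irf8 was 1.86-fold and 1.98-fold lower.

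The ETS factors Ets1 and PU.1 also had lower old means without overlap. Ets1 read 5.51, 5.95 and 8.09 on old replicates 1, 2 and 3, a mean of 6.52 ± 1.38 (SD, n = 3). Its old values lay below all the young ones, old replicate 3 only just, at -0.034 log2 units from the lowest young array. Between the group means the difference was -1.67 ± 0.64 (SE), with an adjusted p of 0.101 by limma. Spi1 read 5.36, 6.11 and 6.19 on the old arrays, a mean of 5.88 ± 0.46 (SD, n = 3). Here old replicates 2 and 3 were close together and old replicate 1 stood below them, a pattern that none of the other 4 genes gave. The difference was -0.65 ± 0.28 (SE), with an adjusted p of 0.111 by limma. Spi1 lay within the receptor level on old replicates 1 and 2, by 0.082 log2 units on the latter. The closeness of old replicates 2 and 3 thus rests on a value not above background. With old replicates 1 and 2 raised to the receptor level, the Spi1 intensity was 1.19-fold and 1.27-fold lower than the young mean. That of Ets1 was 3.75-fold and 3.99-fold lower.

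None of the 5 regulators passed the threshold of an adjusted p under 0.05 in the comparison of all arrays, in which limma called 0 of 23410 probe sets (0.00%). At an unadjusted p under 0.05, 46.8% of all probe sets passed, and 3 of the 5 regulators did (Irf4, Irf8 and Ets1, p of 0.0357, 0.0274 and 0.036 by limma). The groups did not overlap for 4 of the 5, all lower in the old group, against 22.9% of all probe sets and 43.6% of the 12028 probe sets above the receptor level on all 3 young arrays. The median difference was 0.35 over all probe sets and -0.67 over those above the receptor level on all young arrays, to which all 5 regulators belong. Relative to the first the regulators lay at -0.997 (Spi1), -2.67 (Spib), -2.77 (Irf4), -1.65 (Irf8) and -2.02 (Ets1), while against the second Spi1, at -0.65, lay close to the median. Without old replicate 3 each of the 5 passed as lower, with adjusted p from 6.56e-06 for Irf4 to 0.016 for Spi1 by limma, but so did 30.2% of all probe sets, and 82.4% were called in either direction. With estimated array weights each passed as well, where 85.4% of all probe sets did. Of the probe sets above the receptor level on all young arrays, 72.6% and 68.1% lay within it on old replicates 1 and 2, as all 5 regulators did. Whether the signal of these arrays or the progenitors themselves set these differences was not tested.

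**Figure D2:**
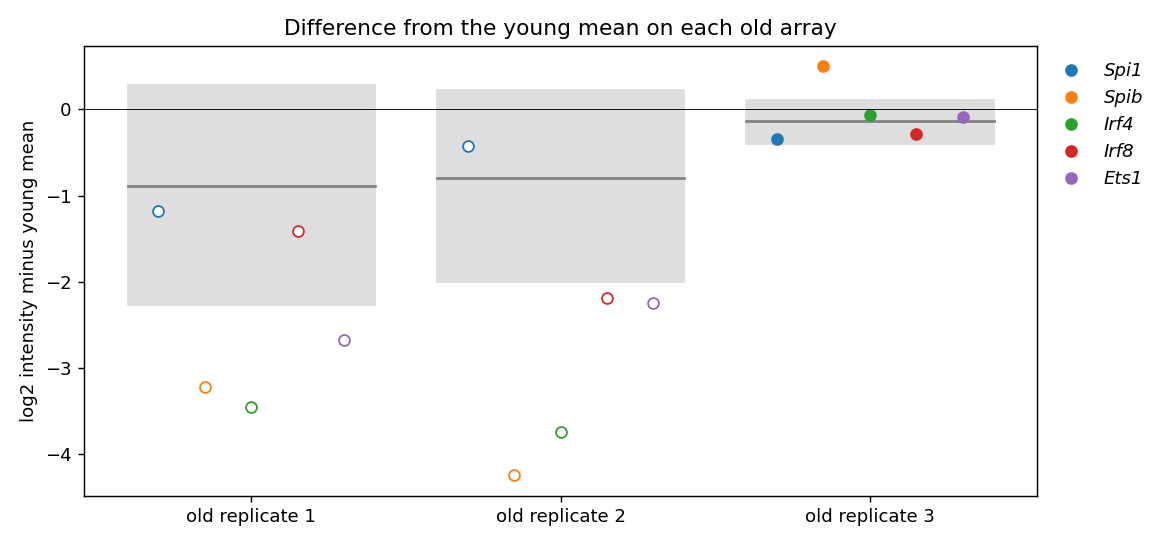
Difference of each old array from the young mean, in log2 units, for the 5 genes; open points lie within the receptor level of their array and filled points above it, and the grey box and line give the quartiles and the median of the 12028 probe sets above the receptor level on all young arrays. On old replicate 3 that median is -0.13, with Spib at 0.50 and Spi1 at -0.34.

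On old replicate 3, the old array with signal nearest to that of the young ones, the 5 regulators lay on both sides of the young arrays. Its interquartile range of 2.44 log2 units and its receptor level were still outside the range of the young arrays. Spib was 0.50 ± 0.13 (SE) log2 units above the young mean, or 1.41-fold, and exceeded the highest young array by 0.44. Spi1 was 0.34 ± 0.14 (SE) below the young mean, or 1.27-fold, and Irf8 0.29 ± 0.13 (SE) below, or 1.22-fold. Both were under all 3 young arrays. Irf4 differed by -0.061 ± 0.12 (SE) and Ets1 by -0.095 ± 0.13 (SE), less than their standard errors. The close relatives PU.1 and Spi-B thus lay on opposite sides of the young arrays. With 1 old array the fit takes its spread from the young arrays and assumes that the lone old one varies alike. The adjusted p by limma was 0.0627 for Spib, 0.163 for Spi1, 0.187 for Irf8, 0.778 for Irf4 and 0.666 for Ets1, so none passed, whereas 7.00% of all probe sets were called, 5.24% as lower and 1.76% as higher. After quantile normalization of these 4 arrays, a scaling chosen after seeing the data, Spib stood at 0.64. Irf4 and Ets1 then changed sign, to 0.15 and 0.12, and Spi1 and Irf8 moved to -0.16 and -0.056. Of probe sets above the receptor level on all young arrays, 26.0% stood above all young arrays on old replicate 3, as Spib did, and 52.4% below them, where 41.7% and 31.8% of all tested probe sets did.

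Some markers of B cell stage differed on the same array, and their part in the values of the regulators was not tested. Of 13 pro-B and pre-B markers 2 were called, both lower, and of 6 mature B markers 1 was called, higher, where 7.00% of all probe sets were called. In the first list 7 lay below all young arrays and 2 above them, Cd93 at 0.23 ± 0.14 (SE) and Pax5 at 0.22 ± 0.13 (SE). All 13 were above the receptor level on all young arrays, and of all probe sets so placed 52.4% lay below and 26.0% above. Igll1, the lambda-5 chain of the surrogate light chain, was at 7.86 on old replicate 3 against 9.14 ± 0.39 (SD, n = 3) in the young group, a difference of -1.28 ± 0.26 (SE) with an adjusted p of 0.0346 by limma. Bst1, an antigen of early B cells, was lower by 1.37 ± 0.14 (SE), with an adjusted p of 0.00817 by limma. Dntt, the polymerase that adds nucleotides at heavy-chain joints, was at 5.13 against 7.15 ± 0.89 (SD, n = 3) and did not pass (adjusted p of 0.0665 by limma). Cd74, the invariant chain of MHC class II, was higher by 0.88 ± 0.19 (SE), with an adjusted p of 0.0397 by limma. Vpreb1, the partner of lambda-5, gave -0.17 ± 0.17 (SE) and Ms4a1, which encodes CD20, 0.14 ± 0.28 (SE). These markers were chosen from lists written with earlier results of these data known.

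Other ETS family genes varied from member to member. Of 23 listed, 22 had a probe set of their own, 0 passed the threshold in the comparison of all arrays by limma (adjusted p of 0.101 or more), and 12 had lower old means, with a median difference of -0.77 against 0.37 over all 19938 genes. Of the 22, 15 were above the receptor level on all young arrays, and 2 and 4 on old replicates 1 and 2. Over all probe sets above it on all young arrays, the median difference was -0.67 and 70.0% had lower old means. The 6 with the smallest p were Etv6, Erg, Elf1, Gabpa, Ets2 and Etv2. Elf1, a lymphoid ETS protein, read 4.84, 4.60 and 8.59 on old replicates 1, 2 and 3 against a young mean of 8.92 ± 0.17 (SD, n = 3). Gabpa, the DNA-binding subunit of GABP, read 4.73, 5.29 and 8.79 against 9.06 ± 0.13 (SD, n = 3). Both thus had the split of Ets1, with old replicate 3 near the young arrays. Erg and Etv6, which act in stem and early progenitor cells, had instead low values on all 3 old arrays. The contrast rests on old replicate 3, since Etv6 was within the receptor level on old replicates 1 and 2 and Erg on old replicate 1. Erg read 5.61, 6.35 and 5.58 against 7.22 ± 0.64 (SD, n = 3), and Etv6 4.67, 5.19 and 5.18 against 6.21 ± 0.37 (SD, n = 3). They differed on old replicate 3 by -1.64 ± 0.40 (SE) and -1.03 ± 0.25 (SE), at adjusted p of 0.054 and 0.0539 by limma, just outside the threshold. Ets2 read 4.57, 4.42 and 5.68 against 5.89 ± 0.086 (SD, n = 3). Etv2, a factor of blood vessel development, lay within the receptor level on every array, as did Spic, the nearest further relative of PU.1.

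Other IRF family genes mostly had lower old means. Of 7 listed, 6 had a probe set of their own, 5 had lower old means, 0 passed the threshold by limma, and the median difference was -0.62. Of the 6, 5 were above the receptor level on all young arrays, and 0 on old replicate 1 or old replicate 2. Over all probe sets above it on all young arrays, the median difference was -0.67 and 70.0% had lower old means. Irf2, which opposes Irf1 at interferon targets, read 4.84, 5.41 and 9.22 on old replicates 1, 2 and 3 against a young mean of 9.18 ± 0.022 (SD, n = 3). Irf3, which is activated when cells sense foreign nucleic acid, read 5.93, 5.71 and 6.23 against 6.78 ± 0.098 (SD, n = 3). On old replicate 3 the difference of Irf3 was -0.55 ± 0.14 (SE), at an adjusted p of 0.0556 by limma, and that of Irf2 was 0.041 ± 0.12 (SE). Irf9, part of the interferon-activated complex ISGF3, read 5.10, 4.98 and 6.16 against 6.29 ± 0.061 (SD, n = 3). Irf1 and Irf5 differed by -0.42 ± 0.30 (SE) and -0.17 ± 0.20 (SE), and Irf7, the interferon-inducible member, by 0.46 ± 0.37 (SE), with Irf7 within the receptor level on 5 of 6 arrays.

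Partner regulators that bind beside these factors at B lineage and light-chain elements had lower old means in 18 of 18 measured of 19 listed, where 36.7% of all genes did. All 18 were above the receptor level on every young array, and of all probe sets so placed 70.0% had lower old means. On old replicates 1 and 2, 3 and 5 of the 18 were above it. None of the 18 passed the threshold by limma, and their median difference was -1.97. The 6 with the smallest p were Mef2c, Yy1, Myb, Ebf1, Cbfb and Ctcf. Mef2c, a MADS-box factor of B cell progenitors, read 6.15, 5.81 and 8.13 on old replicates 1, 2 and 3 against 8.57 ± 0.0086 (SD, n = 3). Ebf1, which specifies the B lineage, read 4.64, 5.61 and 9.70 against 10.0 ± 0.090 (SD, n = 3). Myb, needed for progenitor growth, read 5.46, 6.25 and 9.91 against 10.17 ± 0.090 (SD, n = 3). Yy1 and Ctcf, which shape loops at immunoglobulin loci, differed by -1.63 ± 0.58 (SE) and -2.93 ± 1.07 (SE), and Cbfb, the partner of Runx1, by -2.45 ± 0.89 (SE). The median of the list on old replicate 3 was -0.14, with 12 of 18 genes below all young arrays, where 52.4% of probe sets above the receptor level on all young arrays were, and 0 called, where 7.00% of all were. It turned to 0.057 after quantile normalization of the 4 arrays.

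Target genes of these factors in B cells likewise had 0 genes past the threshold of 15 measured of 16 listed, with lower old means in 13 and a median difference of -1.23. All 15 were above the receptor level on every young array, and 6 and 7 on old replicates 1 and 2. Over all probe sets above it on every young array, the median difference was -0.67 and 70.0% had lower old means. The 6 with the smallest p were Blnk, Fcgr2b, Cd79b, Syk, Btk and Il7r. Blnk, the adaptor that carries the pre-B receptor signal, read 5.32, 5.73 and 9.25 on old replicates 1, 2 and 3 against 9.70 ± 0.064 (SD, n = 3). Its difference on old replicate 3 was -0.45 ± 0.13 (SE), at an adjusted p of 0.0769 by limma. Btk, a kinase of the same pathway, read 4.62, 4.88 and 7.97 against 8.08 ± 0.033 (SD, n = 3). Syk differed by -2.43 ± 0.90 (SE), Cd79b by -2.66 ± 0.98 (SE) and Il7r by -2.71 ± 1.06 (SE). Fcgr2b, the inhibitory Fc receptor, differed by -0.74 ± 0.26 (SE). Igll1, given above, was the 1 gene of these 15 called on old replicate 3, where 7.00% of all probe sets were called, so the count is near the background. Of 14 light-chain segments and constant regions listed, 0 had a single-gene probe set, so the light-chain genes themselves were not analysed here.

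**Figure D3:**
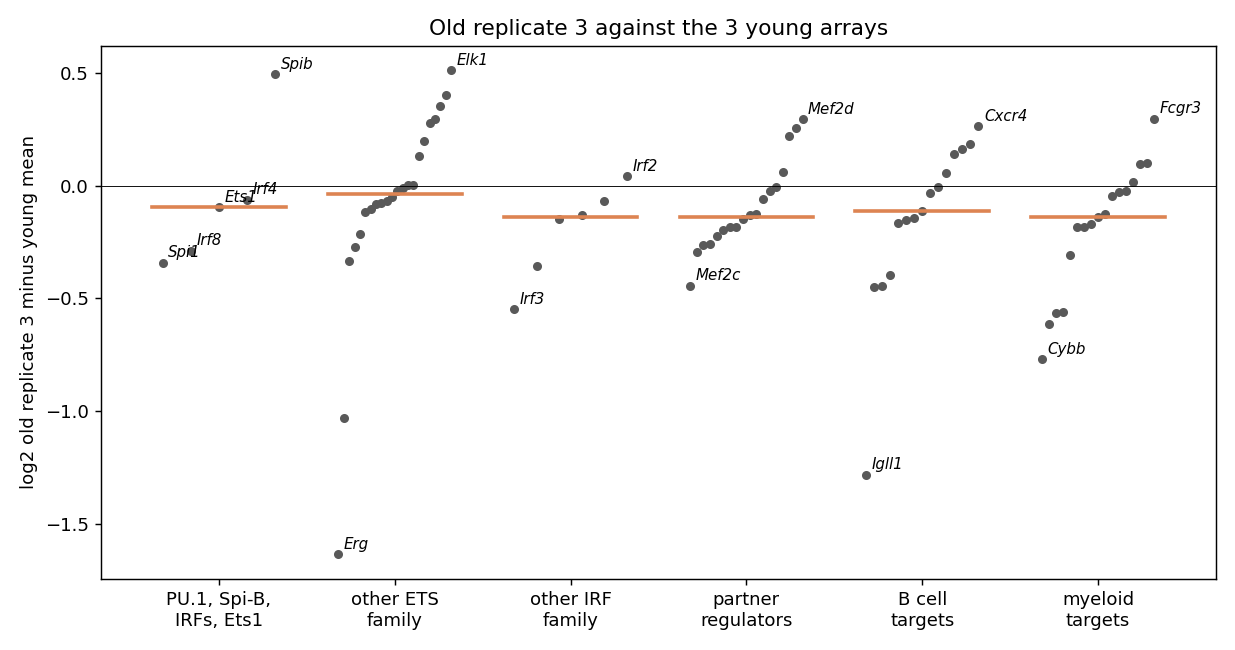
Log2 difference of old replicate 3 from the mean of the 3 young arrays for the 5 regulators and for the genes of each list; each point is a gene, horizontal bars are medians, and the lowest and highest gene of each longer list is named. The highest of the 5 regulators is Spib at 0.50, and the lowest points are Erg at -1.64 and Igll1 at -1.28.

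Myeloid genes that PU.1 and IRF8 are known to drive were considered beside Spi1 because the sort could hold other marrow cells. Of 18 listed 17 were measured, 9 had lower and 8 higher old means, and 0 passed the threshold by limma, with a median difference of -0.089. This median was 0.28 without young replicate 3 and 0.15 without old replicate 3. Cybb, the catalytic chain of the phagocyte oxidase, read 5.07, 5.25 and 8.18 on old replicates 1, 2 and 3 against 8.95 ± 0.37 (SD, n = 3), and Ncf4, a cytosolic subunit of that oxidase, 4.59, 5.29 and 5.94 against 6.50 ± 0.18 (SD, n = 3). Tyrobp, a signalling adaptor of myeloid and NK cells, read 6.44, 6.89 and 8.95 against 9.26 ± 0.32 (SD, n = 3). Fcgr3, Itgam and Fcgr1 differed by 0.88 ± 0.34 (SE), -0.73 ± 0.36 (SE) and 0.80 ± 0.43 (SE). Fcgr3 was above the receptor level on 1 young array and on no old array. Fcgr1 was within the receptor level on all 6 arrays, as were Cd14, Cebpb and Tlr4. Csf1r, a direct target of PU.1 in macrophages, was above it on 1 young array.

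Markers of other marrow cells gave these values beside Spi1 and Irf8, and their part in either gene was not tested. Of 10 neutrophil markers 10 lay above the receptor level on each young array and on old replicate 3, and 3 and 4 on old replicates 1 and 2. Their summed intensity was 7916 to 10395 in the young and 2068 to 8314 in the old group. Old means were lower for 9 of the 10, as for 70.0% of all probe sets above the receptor level on all young arrays. On old replicate 3 Ly6g, Mpo and Ltf lay below all young arrays, at -1.56, -0.81 and -0.68 from the young mean, and S100a8 was the 1 marker above them. Of all probe sets above the receptor level on all young arrays, 52.4% lay below and 26.0% above. S100a8, a granulocyte protein, read 10.30, 11.48 and 11.51 on old replicates 1, 2 and 3 against 11.37 ± 0.088 (SD, n = 3). Of 10 monocyte and macrophage markers 2 to 4 lay above the receptor level on the young arrays, 2 on old replicate 3 and 1 on each of the others, with sums of 604 to 1179 in the young and 424 to 513 in the old group. Old means were higher for 8 of the 10 and lower for 2, where 36.7% of all genes had lower ones. Among the 8 higher markers, Cx3cr1 alone was above the receptor level on any old array. Lyz2, the brightest on the young arrays, read 4.28, 5.22 and 8.17 on old replicates 1, 2 and 3 against 9.13 ± 0.64 (SD, n = 3). Cx3cr1 read 7.28, 7.41 and 6.30 against 5.77 ± 0.067 (SD, n = 3), above the receptor level on all 6 arrays. Of 7 plasmacytoid dendritic cell markers, which share Spib and Irf8 with B cells, 5 to 7 were above it on the young arrays and 5 on old replicate 3, with sums of 925 to 1091 and 509 to 933. For conventional dendritic cells 1 or 2 of 7 were above it on the young arrays and 1 on old replicate 3, with sums of 140 to 189.5 and 159 to 225. Of the 7 plasma cell markers, Mzb1, an endoplasmic reticulum protein, was lower on old replicate 3 by 0.96 ± 0.21 (SE). Tnfrsf17, the receptor BCMA, stood there at 0.56 ± 0.13 (SE) but within the receptor level on all 6 arrays. Plasma cell markers, relevant to Irf4, were above it in 5 of 7 cases on the young arrays and old replicate 3, with sums of 850 to 960 and 265 to 711, while the plasma cell regulator Prdm1 was within it on all 6 arrays. Mature B markers, 6 of 6 above it on those arrays, summed to 953 to 1389 and 303 to 1422, T and NK markers, 4 to 6 of 10 above it on the young arrays and 3 on old replicate 3, to 242 to 382 and 252 to 381, and erythroid markers, 2 or 3 of 4 and 2, to 150 to 239.9 and 171 to 251.

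The genes whose profiles lay nearest to each regulator were taken among 9709 genes above the receptor level on all young arrays, by the Euclidean distance over the 6 arrays of log2 values less the gene's own young mean. The measure is a description, and it is led by old replicates 1 and 2, where all 5 regulators lay within the receptor level, so the distances and their order rest partly on values not above background. Nearest to Irf4 were Pik3ap1 (distance 0.105), which encodes the B cell adaptor BCAP, Bptf, a chromatin remodelling subunit (0.183), and Anapc13, a subunit of the anaphase-promoting complex (0.209). Nearest to Ets1 were Ndufab1 (0.0913), a mitochondrial acyl carrier protein, Atp2a2 (0.139), the calcium pump of the endoplasmic reticulum, and Sclt1 (0.143). Nearest to Irf8 were Cdc42se2 (0.173), Ints8 (0.181), an Integrator subunit, and Mtrf1l (0.184), a mitochondrial release factor. Nearest to Spi1 were Mfsd6 (0.137), Setd3 (0.155), an actin histidine methyltransferase, and Epsti1 (0.168), an interferon-inducible gene. Setd3 lay above the receptor level on all 6 arrays, at 6.90, 7.53 and 7.55 on old replicates 1, 2 and 3 against 7.83, 8.05 and 8.13 on the young ones. Nearest to Spib were Rgs2 (0.426), a regulator of G protein signalling, Fchsd2 (0.501) and Ralgps2 (0.54). Rgs2 read 6.51, 5.52 and 10.24 on old replicates 1, 2 and 3 against a young mean of 9.97, so it too was highest on old replicate 3.

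**Figure D4:**
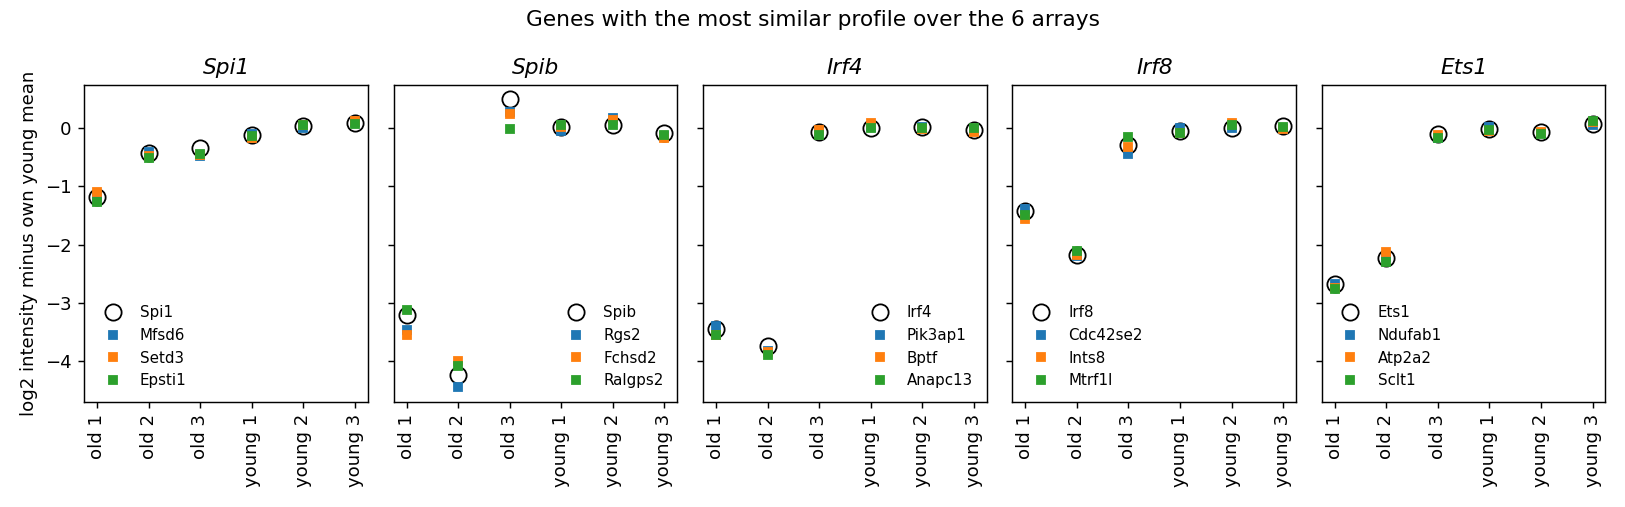
Log2 intensity less the gene's own young mean on each of the 6 arrays, for each regulator (open black circles) and the 3 genes nearest to it (coloured squares). The nearest genes to Spib lie at distances of 0.426 to 0.54 and those to Ets1 at 0.0913 to 0.143.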

How the data were processed

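The deposited table holds 28940 probe set intensities per array, made by the authors with RMA, as the submitters' processing notes name it, with no version or settings. They run from 3.58 to 8502 on a linear scale and were put on the log2 scale here. The platform annotation pairs 21789 probe sets with 1 gene, 1621 with several and 5530 with none, and the 23410 with a gene were tested. Old and young arrays were compared with limma 3.58.1 in R 4.3.3, by a 2-sided moderated test with Benjamini-Hochberg adjustment over all tested probe sets, threshold 0.05; the code was tested on simulated data. A gene of a list is its single-gene probe set with the highest mean. Lists are described by counts and medians.

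The regulators, lists and tests were chosen with earlier results of these data known. Named are the 5 regulators, their 3 nearest genes, the 6 members of each gene list with the smallest p, any called member, and partners or targets that a result needs. Replicate numbers are shared by the groups: deviations of same-numbered arrays correlated at 0.157, 0.15 and 0.279, all over the limit of 0.1, so a fit with the number as a block was an alternative. The labels state no pairing, and old replicate 1 correlated at 0.153 with young replicate 2. Other alternatives were scaling, moderation, array weights, filters and arrays left out. The number of arrays limits the precision. Python 3.11.15 was used for tables, with pandas 2.3.3, and matplotlib 3.10.9 for plots.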

Additional observations from a re-analysis of the deposited data

How the results depend on the processing

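Of 17 alternatives, 12 could change the difference of a regulator, and under these the old group was lower in 55 of 60 results. The exceptions, all without old replicates 1 and 2, are Spib at 0.50, at 0.40 with arrays centred on their median and at 0.64 after quantile normalization, and Irf4 at 0.15 and Ets1 at 0.12 after quantile normalization. The 2 scalings of these 4 arrays were chosen after seeing the data. Leaving out 1 array at a time moved Spi1 between -0.80 and -0.38, Spib between -3.73 and -1.36, Irf4 between -3.59 and -1.76, Irf8 between -1.80 and -0.85 and Ets1 between -2.46 and -1.17, and the count of called probe sets between 0 and 19285. Old replicate 3 decides that count and the calls of all 5 regulators, which passed as lower only without it or with estimated array weights, whose estimation stopped short of its tolerance and gave old replicate 3 the lowest weight. With those weights limma called 19998 probe sets, and Spi1 stood at -0.47, Spib at -4.08, Irf4 at -3.66, Irf8 at -2.07 and Ets1 at -2.23. Without old replicates 1 and 2 the count was 1638, with centring 2442 and with quantile normalization 1142. The replicate block left every difference as it was, -2.42 for Irf4 with an adjusted p of 0.0814 by limma, and changed no call.

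List medians under single arrays left out ranged from -1.02 to -0.53 for other ETS genes, -0.78 to -0.44 for other IRF genes, -2.95 to -1.56 for partner regulators, -1.95 to -1.01 for B cell targets and -0.21 to 0.28 for myeloid targets. Without old replicates 1 and 2 the medians were -0.038 for other ETS genes (-0.14 with centring, 0.040 with quantile normalization), -0.14 for other IRF genes (0.0039 with quantile normalization) and -0.14 for partner regulators (-0.24 with centring, 0.057 with quantile normalization). B cell targets then stood at 0.057 with quantile normalization. Myeloid targets stood at -0.34 with all arrays centred and at 0.27 with array weights. Under quantile normalization of all arrays B cell targets stood at -0.51 and other IRF genes at -0.35, and other ETS genes at -0.43 where each gene's probe sets were averaged and at -1.24 without dim probe sets. The last tests fewer genes; the cause of the other shifts was not tested.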
